A study of Mus musculus with 9 samples.

Results

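The genes described here encode heat shock proteins, the chaperonins and their helper proteins. They were chosen by symbol alone, as the Hsp90, Hspa, Hspb, Hspd1, Hspe1, Hsph1, Dnaja, Dnajb, Dnajc, Cct, Tcp1, Bag, Stip1, Ptges3 and Cdc37 genes of the table, leaving out Hspa5. This gave 90 genes of 24378 gene rows, each with 1 row. The symbols do not restrict the set to the cytosol. A list of genes whose proteins work in the endoplasmic reticulum or the mitochondrion included Hsp90b1, Hspa9, Hspd1 and Hspe1. The list may leave out other such genes. Without the listed genes 73 of the 90 remained, and these 73 held 1331 of the 1617 molecules.

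The mRNA of 9 single cells of the mouse paraventricular nucleus, a hypothalamic centre of neuroendocrine control, was counted as molecules per gene. The cells share 1 label, secretagogin-positive, after the calcium-binding protein secretagogin, and came from C57Bl6/N mice of 21 to 28 days. The labels tie the cells to no named animal. They therefore form 1 sample, they are not replicates, and no p-value was computed. Levels are molecules per 10000 gene molecules of a cell. Intervals are exact 95% intervals, Poisson for levels and Clopper-Pearson for shares, and cover counting error only. For a count of 0 the upper end of the interval is 36.1 per 10000 in cell 1, 10.9 in cell 6 and 1.39 in cell 5.

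Chaperones bind proteins that are not yet folded or have lost their fold. The Hsp70 proteins bind short exposed stretches and release them in an ATP cycle, which J-domain proteins (the Dnaj genes) start and nucleotide exchange factors (Hsp110 and Bag proteins) end. Hsp90 acts later, on nearly folded clients such as kinases and the glucocorticoid receptor, and receives them from Hsp70 through the adaptor Stip1. TRiC is a ring-shaped chaperonin that folds actin and tubulin. Some of these genes are steadily active in every cell, while others are raised by heat shock factor 1 when proteins unfold. Neurons rely on the same system at the synapse, where particular J-domain proteins serve vesicle exocytosis and clathrin uncoating.

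Depth differed widely, from 1021 gene molecules in cell 1 and 3393 in cell 6 to 26466 in cell 5, with a median of 9573. The mitochondrial share ran from 4.31% in cell 9 to 34.2% in cell 6. Spike-in molecules were 1962 to 2184 in cells 1 to 8 and 614 in cell 9. Lane 4 held cell 9 alone, so its lane and the cell cannot be told apart. All 9 listed neuron markers were detected, with summed counts of 28 to 244 molecules per cell, but 1 to 203 without the non-coding RNA Meg3. The count without Meg3 was 1, 6, 7, 15 and 16 in cells 1, 4, 6, 7 and 8, so few molecules mark these cells as neurons. In 3 cells another list held more molecules than the neuron list: blood in cell 4 (2376 against 34), oligodendrocyte in cell 5 (382 against 244) and ependymal or tanycyte in cell 8 (303 against 28). Endothelial markers gave 115 molecules in cell 4 and 52 in cell 7, astrocyte markers 29 in cell 8, and none of the 6 microglia markers was detected. Gfap, Rax, Hbb-bt and Hba-a1 were at 0 in every cell.

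Heat shock factor 1 binds inverted repeats of GAA, so stretches before the starts of 3 genes that hold such repeats are shown, with the repeats in capitals. The sequences are RefSeq promoter windows (GRCm38.p6), which matched 74 of the 90 genes. No window was matched for Hsp90aa1, Hsp90ab1, Hspa8, Hspa9, Hspa13, Hspb2, Bag4, Cct4, Dnajc2, Dnajc5, Dnajc5b, Dnajc11, Dnajc12, Dnajc18, Dnajc22 and Dnajc30. The 250 bases before the start of Hspa1a (chr17:34972157-34972406, minus strand) hold the inverted pair GAANNTTC, shown because Hspa1a is the stress-inducible Hsp70 gene whose levels separated some of the cells. The 30 bases in the Hspe1 and Dnajb6 promoters (chr1:55088053-55088082 and chr5:29735843-29735872, both plus strand) hold alternating units without a break, 4 in Hspe1 and 3 in Dnajb6, and are shown because runs of 3 or more are rare.

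Hspa1a: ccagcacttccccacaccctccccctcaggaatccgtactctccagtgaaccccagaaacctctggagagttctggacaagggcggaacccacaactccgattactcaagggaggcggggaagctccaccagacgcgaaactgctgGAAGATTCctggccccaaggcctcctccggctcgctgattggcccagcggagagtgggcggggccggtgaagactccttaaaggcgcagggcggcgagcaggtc

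Hspe1: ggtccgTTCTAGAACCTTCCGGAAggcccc

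Dnajb6: cagctccgaGAATCTTCCGGAAcgctagac

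The pair GAANNTTC, which reads the same on both strands, occurred in 2582 of 32851 promoter windows of 300 bases (7.86%) and in 19 of the 94 windows of the chaperone genes (20.2%). The other inverted pair, TTCNNGAA, occurred in 8.52% of all windows and in 11 of the 94 (11.7%). Among the 12 genes listed as heat-inducible, 11 had a window, and 8 of them (72.7%) held GAANNTTC in at least 1 window, against 9.04% of all genes with a window. The list was drawn up as textbook targets of heat shock factor 1, so its share is a description and cannot test that link. These were Hspa1a, Hspa1b, Hsph1, Dnaja1, Hspb1, Bag3, Hspd1 and Hspe1, while Hspa1l, Dnajb1 and Hspa4l did not hold it there. A run of 3 alternating units (GAANNTTCNNGAA or TTCNNGAANNTTC, each the reverse complement of the other, and each containing both pairs) occurred in 0.603% of all windows and in 6 of the 94 (6.38%). By gene this was 0.662% of all genes and 4 of the 74 chaperone genes (5.41%), Hspd1, Hspe1, Hsph1 and Dnajb6. The windows with the run overlap each other within Dnajb6, within Hsph1, and between Hspd1 and Hspe1. The stretches before the starts of Hspa1a and Hspa1b are 98.8% identical. Matches in these windows are therefore not independent, for the pairs as for the run. In Hspa1a the pair begins 104 bases before the start, and in Hspe1 the overlapping triples span 89 to 72 bases before it. These matches describe letters, not bound sites.

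Chaperone genes were among the widely detected genes of the table. At least 1 molecule was found for 65 of the 90 genes (72.2%), against 40.1% of all gene rows. In at least 5 cells 26 genes were detected (28.9%, against 6.76% of all gene rows), and in all 9 cells 2 genes, Hsp90aa1 and Hsp90ab1 (2.22%, against 0.189%). A gene had molecules in a median of 3 cells. When detection required 2 molecules 14 genes were in at least 5 cells, against 2.55% of all gene rows, and at 3 molecules 7 genes were, against 1.39%. Without the 3 cells led by another cell type's markers, 14 genes were detected in at least 4 of 6 cells, against 3.43% of all gene rows.

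**Figure D1:**
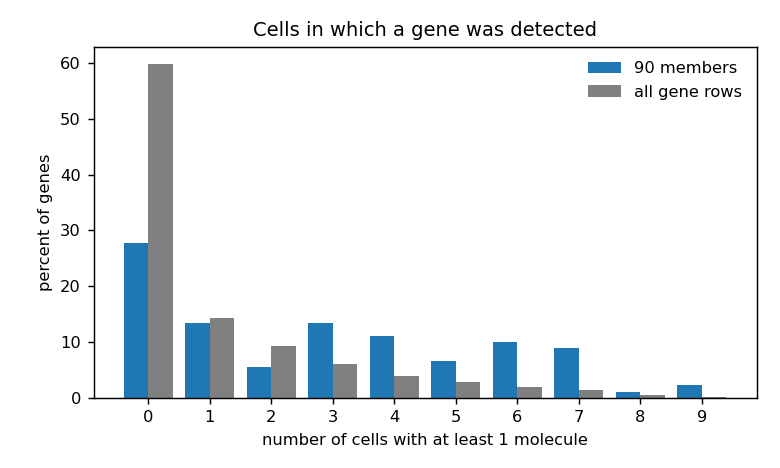
Percent of genes (y axis) by the number of cells, 0 to 9, in which they had at least 1 molecule (x axis), for the 90 chaperone genes (blue) and all 24378 gene rows (grey). No molecule was found for 27.8% of the chaperone genes and 59.9% of all rows.

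The 90 genes took 1.77% of all 91370 gene molecules, and 54.9% of their 1617 molecules came from 4 genes, Hsp90ab1, Hsp90aa1, Hspa8 and Hsp90b1. Ranked by total molecules among all gene rows, Hsp90ab1 was 18th, Hsp90aa1 24th, Hspa8 25th and Hsp90b1 82nd. Per kilobase of exon, the pooled level was 10.7 molecules per 10000 for Hsp90ab1, 6.99 for Hsp90aa1, 6.34 for Hspa8 and 2.58 for Hsp90b1. Counts of whole molecules need no such scaling, and the collapsing of duplicate reads is not given, so these values are a description only.

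The chaperone share of a cell's molecules was 0.881% in cell 1 (interval 0.404 to 1.67%), 1.72% in cell 2 (1.47 to 2.00%), 2.04% in cell 3 (1.78 to 2.33%), 1.10% in cell 4 (0.919 to 1.30%) and 2.37% in cell 5 (2.19 to 2.56%). It was 1.12% in cell 6 (0.794 to 1.53%), 0.838% in cell 7 (0.640 to 1.08%), 1.62% in cell 8 (1.41 to 1.85%) and 1.97% in cell 9 (1.67 to 2.30%). Cell 7 lay below cells 2, 3, 5, 8 and 9 by more than counting error. So did cell 4, but only while globin molecules were part of its total. Cell 5 lay above cells 1, 2, 4, 6, 7 and 8. Cell 4 holds blood markers and cell 7 endothelial markers, cell 5 holds oligodendrocyte markers, and the part of these cells in the shares was not tested. Without globin rows the share of cell 4 was 1.57% (interval 1.32 to 1.86%), which overlapped cells 2, 3, 8 and 9 and remained below cell 5, and without mitochondrially encoded rows that of cell 6 was 1.70% and that of cell 7 was 0.968%.

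**Figure D2:**
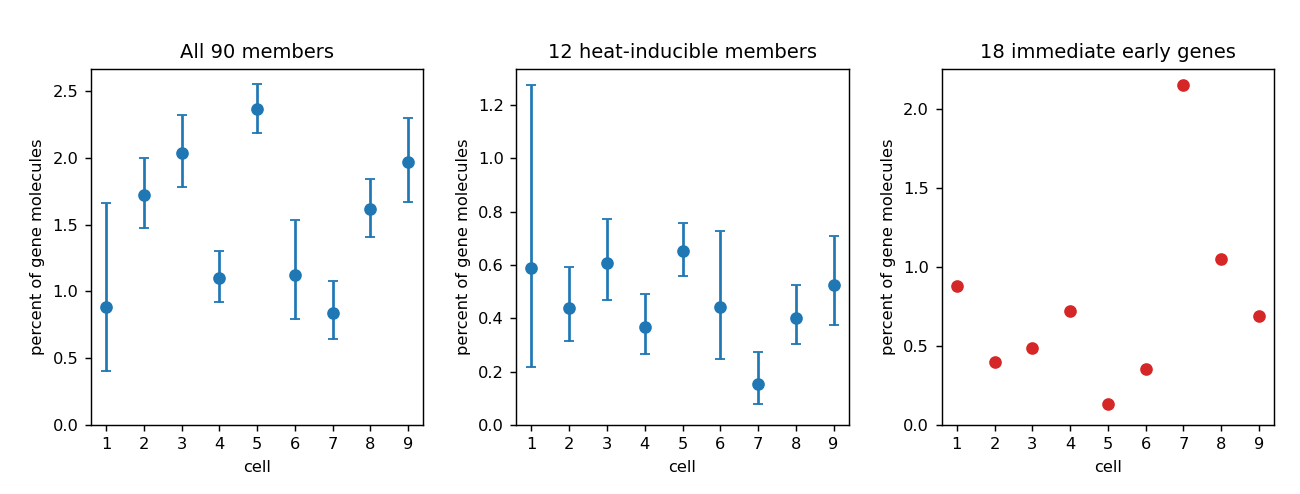
Percent of a cell's gene molecules (y axes) in cells 1 to 9 (x axes) for all 90 chaperone genes (left), the 12 heat-inducible ones (middle) and 18 immediate early genes (right). Points are shares and bars exact 95% intervals for counting error, which are drawn for the chaperone genes only. Cell 7 is lowest in the left and middle panels and highest in the right one.

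More chaperone genes were seen in deeper cells, from 5 genes in cell 1 and 14 in cell 6 to 41 in cell 8 and 53 in cell 5. Scaled down to 1021 molecules by calculation, the expected number was 5.00, 6.96, 7.42 and 6.59 in cells 1, 4, 6 and 7, and 10.1 to 12.2 in the other 5 cells. At 3393 molecules, without cell 1, it was 14 to 15.4 in cells 4, 6 and 7 and 19.7 to 24.3 in the other 5 cells. Without globin the number for cell 4 was 8.81 at 1021 molecules and 18.5 at 3393. Cells 6 and 7 were thus the lowest at 3393 molecules without globin.

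Of the 3 Hsp90 genes, all were in at least 5 cells, with 639 molecules in all. Hsp90ab1 (chromosome 17, 45567775 to 45573271, GRCm38/mm10) encodes the constitutive cytosolic form. It had 1, 22, 48, 34, 120, 2, 12, 27 and 27 molecules in cells 1 to 9. Per 10000 this was highest in cell 5, at 45.3 (interval 37.6 to 54.2), and cell 3, at 44.7 (33.0 to 59.3), and lowest in cell 6, at 5.89 (0.714 to 21.3).

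Hsp90aa1 (chromosome 12, 110690605 to 110702728) encodes the form that heat shock raises. It had 5, 21, 41, 19, 96, 8, 8, 37 and 16 molecules in cells 1 to 9. Its level ran from 11.2 per 10000 in cell 7 (interval 4.82 to 22.0) to 49.0 in cell 1 (15.9 to 114), where it rests on 5 molecules. In 7 of the 9 cells the level lay between 15.8 and 38.2 per 10000.

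The share of Hsp90aa1 among the molecules of both cytosolic Hsp90 genes needs no scaling to the total of a cell. It was 46.1% over all cells (251 of 544 molecules, interval 41.9 to 50.4%) and had a median of 46.1% over cells. Cells 2 to 5, 7, 8 and 9 lay between 35.8% in cell 4 and 57.8% in cell 8, and all of their intervals held the pooled value. In cell 1 it was 83.3% (5 of 6 molecules, interval 35.9 to 99.6%) and in cell 6 80.0% (8 of 10, 44.4 to 97.5%). Each of these 2 intervals held the pooled value as well.

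**Figure D3:**
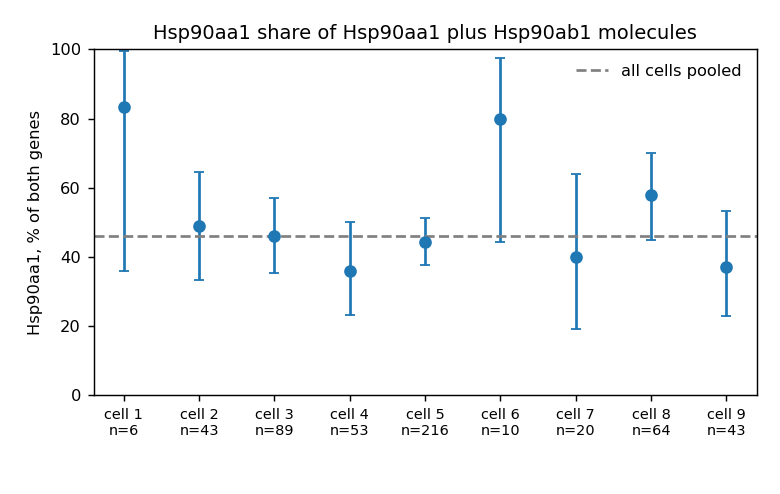
Hsp90aa1 molecules as a percentage of Hsp90aa1 plus Hsp90ab1 molecules (y axis) in cells 1 to 9 (x axis, with the number of molecules n). Points are shares, bars exact 95% intervals for counting error, and the dashed line is the pooled share of 46.1%. Cells 1 and 6 are at 83.3% and 80.0%, and the other cells at 35.8 to 57.8%.

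Hsp90b1 (chromosome 10, 86690209 to 86705509) encodes the Hsp90 of the endoplasmic reticulum, which folds secreted and membrane proteins. It had 0, 6, 21, 5, 40, 5, 1, 6 and 11 molecules in cells 1 to 9. Cell 3 reached 19.6 per 10000 (interval 12.1 to 29.9), and cells 5, 6 and 9 lay at 14.1 to 15.1. Cell 7, at 1.40 (0.0354 to 7.78), and cell 8, at 4.55 (1.67 to 9.91), were below cells 3 and 5 by more than counting error. So was cell 4, at 4.16 (1.35 to 9.70), with globin in its total, and its level without globin was not computed.

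The Hsp90 co-chaperones hold or guide the clients of Hsp90. Stip1 (chromosome 19, 7020702 to 7039967), the adaptor between Hsp70 and Hsp90, had 0, 0, 2, 0, 3, 0, 0, 2 and 11 molecules in cells 1 to 9, so that 11 of its 18 molecules were in cell 9. The level in cell 9, 14.1 per 10000 (interval 7.02 to 25.1), was above the intervals of cells 2, 3, 4, 5, 7 and 8, while cells 1 and 6 were too shallow to compare. Ptges3 (p23, which stabilises the closed form of Hsp90) had 3, 5, 9 and 2 molecules in cells 2, 5, 8 and 9 and none elsewhere. Its level was highest in cell 8, at 6.83 per 10000 (3.12 to 13.0). Cdc37, which delivers kinases, was detected in 6 cells with 11 molecules and had at most 4, in cell 9. Together the 3 genes took 0.217% of the molecules of cell 9 and at most 0.0835% of those of any other cell.

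Of the 10 Hsp70 genes, 5 reached at least 5 cells and 3 reached 1 to 4, while Hspa1l and Hspa12b had no molecule. Hspa8 (chromosome 9, 40800984 to 40810087) encodes Hsc70, the constitutive cytosolic Hsp70 that also strips clathrin from vesicles. It had 0, 28, 32, 22, 108, 0, 7, 33 and 19 molecules in cells 1 to 9. Cell 5 was highest, at 40.8 per 10000 (interval 33.5 to 49.3), and cell 7 lowest of the cells with molecules, at 9.78 (3.93 to 20.1). Cells 2, 3, 8 and 9 lay at 24.3 to 29.8 and cell 4 at 18.3.

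Cell 6 held no Hspa8 molecule, although 9.25 would lie there at the pooled level, against 2.78 in cell 1. The upper end of the exact interval in cell 6, 10.9 per 10000, was below the lower ends in cells 2 to 5, 8 and 9 but above that in cell 7. Per 10000 molecules outside the mitochondrial genome the upper end in cell 6 was 16.5. This was still below the intervals of cells 2, 3, 5 and 8 but no longer below those of cells 4 and 9. For cell 4 globin was still in that total, and its level without globin was not computed. Cell 1 was too shallow to compare. The mitochondrial share was 34.2% in cell 6 and 19.9% in cell 1, and ribosomal-protein genes took 0.531% and 0.588% there, against 2.82 to 5.24% in the other cells. The part of the low ribosomal-protein share in the absence of Hspa8 was not tested.

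The upper end for Hsp90ab1 in cell 6, 21.3 per 10000, was below the intervals of cells 3, 5 and 9 (lower ends 33.0, 37.6 and 22.7) and overlapped the others. Without the mitochondrial molecules it was 32.4, below the intervals of cells 3 and 5 alone. Hsp90aa1, at 23.6 per 10000 in cell 6 (interval 10.2 to 46.5), overlapped the intervals of all the other cells, so no difference was detectable at this depth.

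Hspa1a (chromosome 17, 34969190 to 34972156) encodes the stress-inducible Hsp70 whose promoter is shown above. It had 0, 0, 2, 10, 5, 4, 0, 0 and 1 molecules in cells 1 to 9. Its level was 11.8 per 10000 in cell 6 (interval 3.21 to 30.2) and 8.32 in cell 4 (3.99 to 15.3), against 1.89 in cell 5 (0.613 to 4.41), 1.86 in cell 3 (0.226 to 6.73) and 1.28 in cell 9 (0.0323 to 7.12). The intervals of cells 4 and 6 lay above the 0 to 2.80 of cell 8, and that of cell 4 also above the 0 to 3.85 of cell 2. Both overlapped those of cells 1, 3, 5, 7 and 9. For cell 4 these overlaps hold with globin in its total, and its level without globin was not computed. Cell 4 is the cell with blood and endothelial markers, and cell 6 has the highest mitochondrial share, whose part in these levels was not tested.

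The adjacent gene Hspa1b had 2 molecules, also in cell 4. Of all windows of 50 bases in Hspa1a transcripts, 60.3% also occur in another gene, mostly in Hspa1b, so the split of molecules between these genes is uncertain. Their promoters are alike too, with 3 differences in the 250 bases before the starts. Windows found in other genes made up 47.5% for Hsp90aa1, 38.6% for Hspa8, 39.7% for Hspd1 and 48.8% for Hspb1. The genes sharing most of these windows (Gm12346, Gm15459, Hspd1-ps3 and Hsp25-ps1) have no row of that name in the table.

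**Figure D4:**
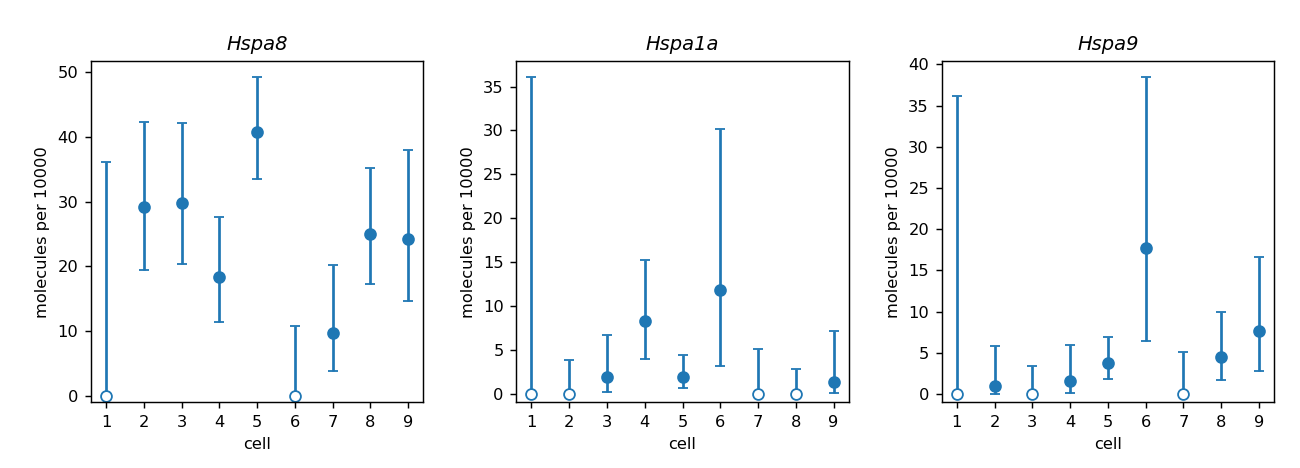
Molecules per 10000 gene molecules (y axes) of Hspa8, Hspa1a and Hspa9 in cells 1 to 9 (x axes). Filled points are levels, open points counts of 0, and bars exact 95% Poisson intervals. Hspa8 is at 0 in cell 6, where Hspa1a and Hspa9 have their highest levels per 10000, 11.8 and 17.7. Globin is in the total of cell 4, and its Hspa1a level without globin was not computed. Scaled by spike-ins, cell 4 is highest for Hspa1a and cell 9 for Hspa9.

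Hspa9 encodes mortalin, the Hsp70 that pulls imported proteins into the mitochondrial matrix. It had 0, 1, 0, 2, 10, 6, 0, 6 and 6 molecules in cells 1 to 9. The level in cell 6, 17.7 per 10000 (interval 6.49 to 38.5), was above the intervals of cells 2, 3, 4 and 7 and overlapped those of cells 1, 5, 8 and 9. For cell 4 this holds with globin in its total, and its level without globin was not computed. Cell 6, which has no Hspa8, thus had the highest level of the mitochondrial Hsp70 per 10000 among these cells. Scaled by spike-ins, cells 5 and 9 lay above cell 6.

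Hspa12a, an atypical Hsp70 relative, and Hspa13, of the endoplasmic reticulum, had 11 molecules each. Hspa12a was spread over 6 cells at 1 to 3 molecules, and Hspa13 was in 5 cells with 5 molecules in cell 3. Hspa14, a ribosome-associated Hsp70, had 6 molecules and Hspa2, best known from the testis, had 4.

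The Hsp110 proteins reset Hsp70 by exchanging its nucleotide. Hsph1 (chromosome 5, 149614287 to 149636376), the heat-inducible member, was in 6 cells with 4, 3, 9, 2, 5 and 6 molecules in cells 3, 4, 5, 7, 8 and 9, and none in cells 1, 2 and 6. Its level of 7.67 per 10000 in cell 9 (interval 2.81 to 16.7) overlapped the intervals of every other cell. Hspa4l and Hspa4 had 6 and 5 molecules in 3 cells each.

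Small heat shock proteins hold unfolded proteins without ATP and are known from muscle and glia. Of the 8 Hspb genes 6 had no molecule. Hspb1, the inducible Hsp27, had 2 molecules, both in cell 4, and Hspb11, a component of intraflagellar transport named by similarity, had 4, of which 3 lay in cell 5. Cryab, the small heat shock protein of the lens and of oligodendrocytes, is outside the symbol rule. It had 17 molecules in cell 5, which holds the oligodendrocyte markers, and 1 in cell 8.

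The mitochondrial chaperonin is a barrel of Hsp60, from Hspd1, with a lid of Hsp10, from Hspe1. These genes are neighbours on chromosome 1, at 55077835 to 55088243 and 55088132 to 55091307, on opposite strands and head to head. The triple shown for Hspe1 lies in the RefSeq promoter window of Hspe1 and in 1 of the 2 windows of Hspd1. Their RefSeq starts are 95 to 216 bases apart. Hspd1 had 1, 0, 5, 1, 26, 2, 0, 0 and 9 molecules in cells 1 to 9, and Hspe1 had 0, 11, 7, 0, 12, 1, 1, 6 and 3. Totals were alike, 44 and 41 molecules.

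The balance of the neighbours differed between cells. Hspd1 made up 0 of 11 molecules in cell 2 (interval 0 to 28.5%) and 0 of 6 in cell 8 (0 to 45.9%), but 26 of 38 in cell 5 (68.4%, 51.3 to 82.5%) and 9 of 12 in cell 9 (75.0%, 42.8 to 94.5%). The interval of cell 2 did not overlap those of cells 5 and 9. In these cells a head-to-head position did not go with equal counts. The first exons overlap on opposite strands, so if reads were counted without strand some cannot be assigned.

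TRiC has 8 different subunits in each ring. All 8 subunit genes (Tcp1, Cct2, Cct3, Cct4, Cct5, Cct6a, Cct7 and Cct8) were detected, 7 of them in at least 5 cells, and the testis form Cct6b and the Cct8l1 gene had no molecule. Cct8 had 45 molecules, Cct5 39, Tcp1 26, Cct7 25, Cct6a 18, Cct2 15, Cct3 14 and Cct4 7. Cells 3, 5 and 8 held all 8 subunit genes, cells 2 and 4 held 7, cell 9 held 6, cell 7 held 4, cell 6 held 3 and cell 1 none.

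Summed over subunits, cell 5 held 76 molecules where 54.7 would lie at the pooled level, and cell 4 held 9 where 24.9 would. In cells 7 and 6 there were 8 and 4 molecules against 14.8 and 7.02, while cells 2, 3, 8 and 9 had 23, 28, 25 and 16 against 19.8, 22.2, 27.3 and 16.2. Cell 4 was thus low, but globin takes part of the total behind its 24.9. Without globin it held 8387 gene molecules, fewer than cell 2 (9573) and cell 3 (10730), and its number at the pooled level was not recomputed. Cct8 reached the highest level of them, with 9.40 per 10000 in cell 2 and 9.32 in cell 3 (10 molecules, interval 4.47 to 17.1) against 0.832 in cell 4 (0.0211 to 4.63) and 1.52 in cell 8 (0.184 to 5.48). The interval of cell 3 overlapped both. Cct6a had 6 molecules in cell 5, 1 to 3 in 6 cells and none in cells 1 and 6, which is close to counts proportional to the cells' totals.

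**Figure D5:**
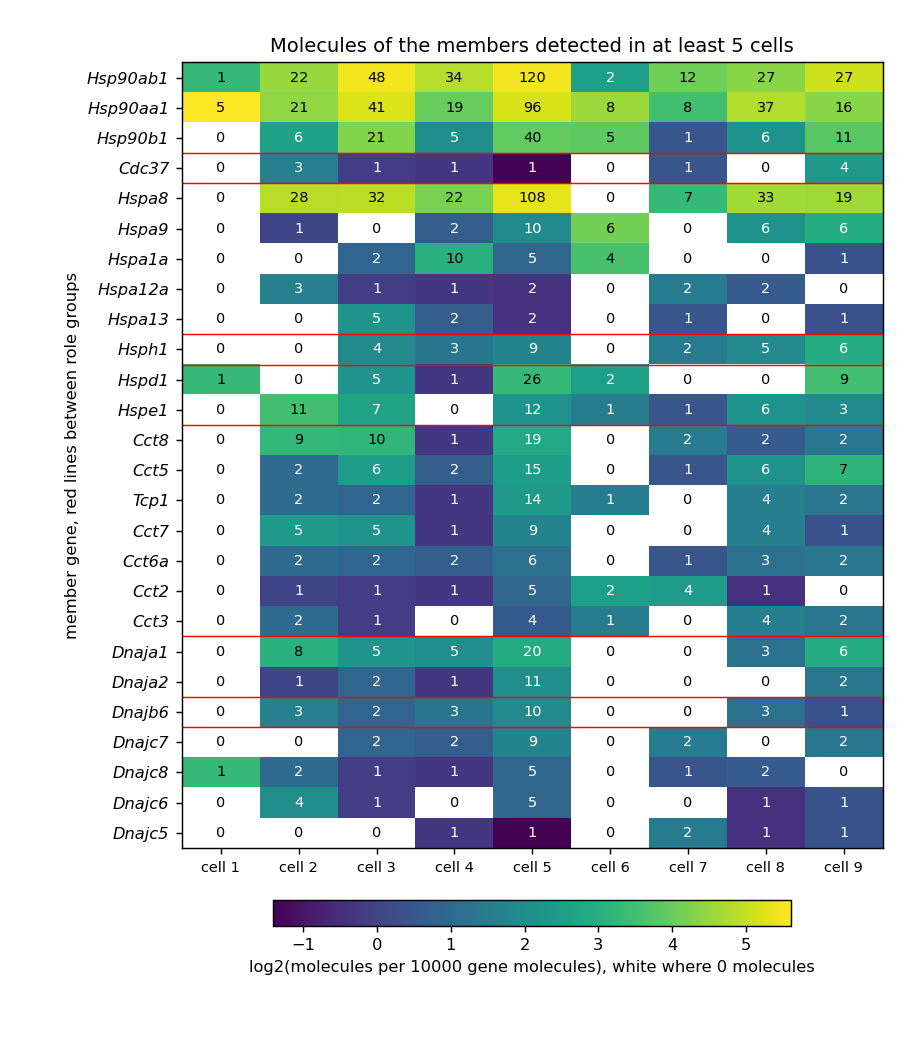
Molecules of the 26 chaperone genes detected in at least 5 cells (rows) in cells 1 to 9 (columns), with the count printed in each field. Colour is log2 of the molecules per 10000 gene molecules, white is 0, and red lines part the role groups. Hsp90aa1 and Hsp90ab1 are filled in all 9 cells, and Hspa8 is blank in cells 1 and 6.

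The Bag genes, whose proteins release clients from Hsp70, were sparse. None was in at least 5 cells, 5 were in 1 to 4 cells, and Bag3, the member induced with stress and used in chaperone-assisted autophagy, had no molecule. Bag1 and Bag2 had 5 molecules each, Bag5 had 3, all in cell 5, and Bag4 and Bag6 had 2 each.

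J-domain proteins bring clients to Hsp70 and choose among them. Among the 4 Dnaja genes, Dnaja1, a cytosolic partner of Hsc70, had 8, 5, 5, 20, 3 and 6 molecules in cells 2, 3, 4, 5, 8 and 9, and none in cells 1, 6 and 7. At 0 molecules, the upper end in cell 7 was 5.15 per 10000, within the intervals of cells 2 and 9, where the level was 8.36 and 7.67. Dnaja2 had 17 molecules in 5 cells, 11 of them in cell 5. Dnaja4 had 2 and the mitochondrial Dnaja3 had 1.

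Of the 13 Dnajb genes, 1 reached at least 5 cells, 8 reached 1 to 4, and 4 had no molecule. Dnajb6, a suppressor of aggregation whose promoter stretch is shown above, had 10 molecules in cell 5, 1 to 3 in cells 2, 3, 4, 8 and 9, and none in cells 1, 6 and 7. Dnajb4 had 15 molecules in 4 cells, 9 of them in cell 5. Dnajb1, the main heat-inducible partner of Hsp70, had 1, 2 and 3 molecules in cells 3, 4 and 5 and none elsewhere. All 3 of these cells also held Hspa1a.

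Of the 28 Dnajc genes, 4 reached at least 5 cells, 14 reached 1 to 4, and 10 had no molecule. Dnajc7, a co-chaperone with TPR repeats, had 17 molecules in 5 cells, 9 of them in cell 5, and Dnajc8, linked to splicing, had 13 in 7 cells. Dnajc6, the neuronal auxilin that recruits Hsc70 to clathrin coats, had 12 molecules in 5 cells, with 5 in cell 5 and 4 in cell 2. Dnajc5, which encodes cysteine string protein of synaptic vesicles, had 1 or 2 molecules in each of cells 4, 5, 7, 8 and 9 and none in cells 1, 2, 3 and 6. Both synaptic genes were thus present at few molecules. Dnajc3 (an inhibitor of the kinase PERK) and Dnajc15 (of the mitochondrial inner membrane) had 15 molecules each in 4 cells, and 12 and 11 of these lay in cells 2 and 8.

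The 12 heat-inducible genes were set against 18 immediate early genes, a class that rises within minutes of neuronal firing or of tissue dissociation. Of the 12, 6 reached at least 5 cells (Hsp90aa1, Hspa1a, Hsph1, Dnaja1, Hspd1 and Hspe1), 4 reached fewer, and Hspa1l and Bag3 had no molecule. Their summed share was 0.588, 0.439, 0.606, 0.366, 0.654, 0.442, 0.154, 0.402 and 0.524% in cells 1 to 9. Cell 7, with an interval of 0.0767 to 0.275%, lay below cells 2, 3, 5, 8 and 9 by more than counting error. The interval of cell 4 (0.266 to 0.491%) overlapped that of cell 7 with globin in its total. The heat-inducible share of cell 4 without globin was not computed. Hsp90aa1 alone gave 251 of the 450 molecules, and without it the median over cells was 0.208% in place of 0.442%.

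The immediate early genes took 2.15% of the molecules of cell 7 and 0.132% of those of cell 5, with a median of 0.690%. The cell with the highest immediate early share had the lowest heat-inducible share, and the cell with the lowest immediate early share had the highest heat-inducible share. For cell 5 this order was within counting error. Its heat-inducible interval (0.560 to 0.758%) overlapped those of cells 1, 2, 3, 6 and 9, and without Hsp90aa1 it held 0.291% against 0.319% in cell 9. Cell 7 was lowest without Hsp90aa1 as well, at 0.0419%. Both cells also held markers of another cell type, endothelial in cell 7 and oligodendrocyte in cell 5, whose part in this was not tested. In the other 7 cells the immediate early share ran from 0.354 to 1.05% and the heat-inducible share from 0.366 to 0.606%.

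Other chaperone genes outside the symbol rule were widely detected as well. Of 42 listed genes 41 were in the table, 16 reached at least 5 cells, 22 reached 1 to 4 and 3 had no molecule, with 506 molecules in all. Ubb, a polyubiquitin gene that stress also raises, had 48 molecules in 8 cells. Hsbp1, which encodes a small binding partner of heat shock factor 1, had 44 in 6 cells, and the prefoldin subunit gene Pfdn5, whose protein hands actin and tubulin to TRiC, had 32 in 6 cells.

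How unevenly a gene was spread was described by its variance around counts proportional to the cells' totals, divided by that expectation, which is near 1 for counting error alone. Among the 31 chaperone genes with at least 9 molecules it ran from 0.172 for Cct6a to 8.20 for Stip1, with a median of 1.82. Over all 2063 gene rows with at least 9 molecules the median was 1.93, close to that of the chaperone genes, though the totals of the genes were not matched. At a given relative spread the measure grows with a gene's number of molecules. Its values therefore do not rank genes of unlike totals, such as Hsp90aa1 (251 molecules) and Cct6a (18), by how much they vary between cells. Hsp90ab1 had 5.33, Hspa8 5.29, Hspd1 5.00, Hspa1a 4.77, Hspa9 4.29 and Hsp90b1 4.13. Hsp90aa1 had 3.66, and the TRiC genes with 9 or more molecules except Cct8 (2.72) had 0.172 to 1.71.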

How the data were processed

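Single cells from slices 300 µm thick were captured on a microfluidic chip, with spike-in RNA at lysis and 21 PCR cycles, per the labels' protocols. The deposited table gives raw counts for 24378 genes and 92 spike-in sequences, in whole numbers. Bowtie and mm10 are named in the submitters' processing notes. The collapsing of duplicate reads, the annotation and the strand setting are not given in the sources used here. Calling the counts molecules follows the name of the deposit. Columns were matched to cells by cell number, with 9 distinct chamber positions. The members and lists were chosen with earlier results of these data known. The rule was that any member may be named, with values in every cell for those in at least 5 cells or on the heat-inducible list, and otherwise up to 4 per role group by total. Positions, exon lengths and shared windows come from GENCODE M21 (GRCm38/mm10), promoters from RefSeq. The unevenness measure was tested on simulated data. Doublets were not called. Alternatives were other totals, detection limits, cell sets and member sets. Values were computed in Python 3.11.15 (scipy 1.17.1, pandas 2.3.3, numpy 2.4.6) and drawn with matplotlib 3.10.9. The values of 1 gene of the list of other chaperone genes are not reported here.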

Additional observations from a re-analysis of the deposited data

Results flagged for a closer look

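Of 46 measures over the 9 cells, 12 had 1 cell far above the rest, with a gap to the nearest cell that exceeds Dixon's 95% critical value as a share of the range. Chance alone gives about 1 in 20 for well-behaved values, which sparse counts are not. Stip1 reached 14.1 molecules per 10000 in cell 9, and with it the Hsp90 co-chaperones reached 0.217% of molecules there. Hsph1 was also highest in cell 9, at 7.67. Ptges3 stood out in cell 8 at 6.83, Hspa9 in cell 6 at 17.7 and Hspa13 in cell 3 at 4.66. The others rest on 1 to 4 molecules. They are Dnajc5 at 2.79 in cell 7, Dnajc6 at 4.18 in cell 2, Dnajc8 at 9.79 in cell 1 (a single molecule), Hspa1b and Hspb1 at 1.66 each in cell 4, and the small heat shock proteins at 0.0250% in cell 4.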

How the results depend on the processing

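The count of 26 genes in at least 5 cells was 14 with detection at 2 molecules, 7 at 3 molecules, and 14 for at least 4 of the 6 cells not led by another cell type's markers. Without the listed organelle members it was 21, and for at least 4 of the 7 cells other than 1 and 6 it was 35. Leaving out 1 cell at a time gave 20 to 26. Chosen after seeing the data were the values without organelle members, the shares without the 2 shallowest cells, and the values without cells led by other markers except the Hsp90aa1 share. No paired analysis was possible because there is 1 group. The median heat-inducible share of 0.442% was 0.208% without Hsp90aa1. The median chaperone share of 1.62% ran from 1.32 to 1.86% over its 16 alternatives, and the median Hsp90aa1 share of 46.1% from 44.4 to 47.5%, all within 1 SD over cells. Scaling by spike-ins keeps the size of a cell's RNA pool in the value. The highest cell over the median cell was then 4.44 in place of 1.97 for Hsp90ab1 and 3.81 in place of 1.68 for Hspa8. It was 6.66 in place of 3.12 for Hsp90b1, 4.19 in place of 2.01 for Dnaja1 and 9.02 in place of 3.68 for Cct8. For Hsp90aa1 it was 4.52 in place of 2.08, within the counting interval of the 2.08. The 2.08 is from cell 1, on 5 molecules, and the 4.52 from cell 5, on 96 molecules. Scaled by spike-ins, cell 1 was the lowest cell for Hsp90aa1 instead of the highest. The highest cell also changed for Hsp90b1 (cell 3 to 5), Dnaja1 (cell 2 to 9) and Cct8 (cell 2 to 5). It changed as well for Hspa1a (cell 6 to 4) and Hspa9 (cell 6 to 9). The chaperone share of cell 4 was 1.57% in place of 1.10% without globin rows, chosen after seeing the data. No symbol had several loci, so summing loci changed nothing. Depth limits cells 1 and 6 most, where a count of 0 says little for all but the most abundant genes.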
